A study of Mus musculus with 12 samples.

Results

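The members described here were 5 mouse genes of haemoglobin and red cell precursors, namely the α-globin genes Hba-a1 and Hba-a2, the β-globin genes Hbb-bs and Hbb-bt, and Alas2, out of 35944 genes with a matched transcript. They were chosen because their values were low in all 3 tumours that received miR-222-3p, so every value from that comparison is a description and was not tested. mRNA was sequenced from 12 tumours of 4T1, a mouse mammary carcinoma cell line, grown for this study in BALB/c mice, all female and aged 6 to 8 weeks, after injection of 100000 cells under the skin of the right flank. From day 5, mice received 3 µg of extracellular vesicles beside the tumour every 2 days, and tumours were taken on day 21. The vesicles came from MS-1, a mouse endothelial cell line, and carried 1 synthetic miRNA mimic: cel-miR-67, a nematode miRNA used as the control (ctrl), or 1 of 3 mouse miRNAs (miR-222-3p, miR-183-5p, miR-142-5p), with 3 tumours in each of the 4 groups. All groups thus carried the same tumour line and received loaded vesicles, and no group without vesicles was analysed here. Tumours hold blood, stroma and host immune cells beside carcinoma cells. The authors state that cells of the tumours were collected for sequencing, and their methods do not say how. Whether this handling kept all red cells is not known.

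Haemoglobin of the adult red cell is a tetramer of α and β chains, each of which holds a haem group. Alas2 encodes the erythroid 5-aminolevulinate synthase, which starts haem synthesis in red cell precursors. Young red cells released into the blood, the reticulocytes, still hold globin mRNA although they have lost their nucleus, so globin mRNA in a solid tissue is known as a sign of blood within it. In these bulk samples, fewer cells of a type and less RNA per cell cannot be told apart.

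The mature miRNAs named by the groups are shown because the tumours differ by them, taken from RefSeq (GRCm38.p6) and not from the mimics themselves. Lines run 5′ to 3′ and the seed, bases 2 to 8, is in capitals. In order, they come from chr11:87756867-87756887 (+ strand), chr6:30169711-30169732 (− strand) and chrX:19146901-19146923 (− strand).
mmu-miR-142a-5p: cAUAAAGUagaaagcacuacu
mmu-miR-183-5p: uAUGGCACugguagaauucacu
mmu-miR-222-3p: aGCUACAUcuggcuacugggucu
The 3 seeds differed from each other. The DNA letters complementary to the miR-222-3p seed, ATGTAGC, were in none of the main transcripts of the 5 members, against 9.49% of 58797 protein-coding transcripts of GENCODE M21. Those for miR-142-5p, ACTTTAT, were in none of them either (13.5% of coding transcripts). The letters for miR-183-5p, GTGCCAT, occurred once in each coding transcript of Alas2 searched and in no globin transcript (14.4% of coding transcripts). The globin transcripts were 554 to 703 bases long against a median of 1816 bases over all coding transcripts, and a match or its lack says only whether these letters are in the transcript.

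The 4 globin genes lie in a pair of clusters. In GRCm38, Hba-a1 (ENSMUSG00000069919.7) spans chr11:32283511-32284465 and Hba-a2 (ENSMUSG00000069917.7) chr11:32296489-32297298, both on the + strand. Hbb-bs (ENSMUSG00000052305.6) spans chr7:103826534-103828096 and Hbb-bt (ENSMUSG00000073940.3) chr7:103812524-103813996, both on the − strand. Alas2 (ENSMUSG00000025270.13) lies apart from them at chrX:150547375-150570638 on the + strand. All 5 are annotated as protein-coding. Promoters are shown for members of both clusters, whose mRNA levels are compared below, and for Alas2 as the member outside them. Each line gives 120 bases before to 30 bases after the RefSeq start, 5′ to 3′ on the gene's strand, with matches on either strand to GATAA (the GATA motif), CACCC (the CACC box), CCAAT (the CCAAT box) or TATAA (the TATA box) in capitals. In order, the windows are chr11:32296372-32296521 (+), chr7:103827899-103828048 (−), chr7:103813894-103814043 (−) and chrX:150547297-150547446 (+).
Hba-a2: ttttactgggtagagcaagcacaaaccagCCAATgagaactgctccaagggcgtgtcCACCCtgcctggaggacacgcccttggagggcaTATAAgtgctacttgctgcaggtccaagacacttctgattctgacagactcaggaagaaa
Hbb-bs: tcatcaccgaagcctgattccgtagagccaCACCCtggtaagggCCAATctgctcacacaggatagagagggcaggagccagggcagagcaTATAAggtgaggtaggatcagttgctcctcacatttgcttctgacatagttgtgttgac
Hbb-bt: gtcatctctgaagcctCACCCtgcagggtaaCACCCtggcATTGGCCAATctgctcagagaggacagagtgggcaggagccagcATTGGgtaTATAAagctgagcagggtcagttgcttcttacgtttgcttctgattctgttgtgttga
Alas2: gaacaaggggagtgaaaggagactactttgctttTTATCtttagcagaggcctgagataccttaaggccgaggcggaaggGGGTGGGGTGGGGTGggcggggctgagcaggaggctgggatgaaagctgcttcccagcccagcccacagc
Over the whole 300-base promoter window, 250 before to 50 after the start, GATAA and CACCC occurred in all 5 members, against 25.4% and 57.5% of 32851 mouse promoters of that length. TATAA was also in all 5 (24.9% of promoters), though in Alas2 its nearest match began 207 bases before the start, outside the window shown. CCAAT was in the 4 globin promoters and not in Alas2 (37.4% of promoters). In Hbb-bt, a pair of CCAAT matches on opposite strands overlap at ATTGGCCAAT.

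The libraries held 20285968 to 27021401 estimated reads, of which 0.633% to 0.671% belonged to transcripts with no match in the annotation. Libraries stood apart in 2 ways. The share of the reads of Gm28661 and mt-Co2 given to Gm28661 was 0.000621% to 0.324% in the 3 miR-222-3p libraries and 0.0169% in miR-183-5p tumour 3, against 7.13% to 41.8% in the other 8. The ctrl libraries were all among these 8, at 9.88% to 41.8%. In the miR-222-3p comparison with ctrl, the mimic and this difference between libraries thus cannot be told apart. B and plasma cell markers summed to 2127 TPM in miR-142-5p tumour 3 and to 19.7 to 83.1 TPM in the others. The labels did not say whether tumours with the same number share anything.

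Globin mRNA was present in every tumour and the adult forms made up all of it. The TPM (a level scaled by transcript length and by library) of the 4 genes together ranged from 149.6 to 758, which was 0.00445% to 0.0217% of reads. The 6 listed embryonic and minor globins, among them Hba-x, Hbb-y and Hbb-bh1, were at 0 reads in all 12 libraries. Several genes of nucleated red cell precursors, singled out after their values were seen, were at or near 0 in every tumour. Klf1 (the erythroid Krüppel-like factor) reached at most 0.319 TPM, Gata1 (the erythroid GATA factor) 0.508 TPM and Slc4a1 (the band 3 anion exchanger) 0.186 TPM, and Car1 had 0 reads in all. Other listed genes with a role in red cells were detected in all 12 libraries, such as Rhd, a blood group gene, at 4.09 to 7.28 TPM, Car2, a carbonic anhydrase that other cells also make, at 2.21 to 5.56 TPM, and Epor, the erythropoietin receptor, at 0.116 to 1.01 TPM. Slc4a1 and the listed membrane gene Rhag also had reads in all 12 libraries, 61 and 61.4 in total. Klf1 had 43 reads in total and 0 in 3 libraries, so detection did not divide the genes. The label of erythroid genes thus rests on globin mRNA and a low level of Alas2, while Klf1, Gata1 and Slc4a1 were scarce and Car1 had no reads.

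Hbb-bs, the more abundant β-globin gene, had the highest level of the 5 members. In ctrl tumours 1 to 3 it was at 219.5, 214.6 and 259.3 TPM. In miR-142-5p tumours it was at 411.7, 148.2 and 199.3 TPM. The ctrl values thus lay close together, while miR-142-5p tumour 1 was above and tumours 2 and 3 were below all of them. In miR-183-5p tumours Hbb-bs was at 282.2, 254.1 and 476.2 TPM, and in miR-222-3p tumours at 156.8, 85.2 and 149.8 TPM. All miR-222-3p values lay below all ctrl values, by which the gene was chosen, but miR-142-5p tumour 2 fell between miR-222-3p tumours 2 and 3.

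Hbb-bt, the less abundant β-globin gene in these libraries, stood at 9.76, 9.29 and 12.0 TPM in ctrl tumours and at 14.9, 5.87 and 8.18 TPM in miR-142-5p tumours. It stood at 12.9, 10.5 and 14.2 TPM in miR-183-5p tumours and at 5.16, 3.71 and 4.53 TPM in miR-222-3p tumours. The highest single value was that of miR-142-5p tumour 1, and here every other tumour was above the highest miR-222-3p value. Hbb-bt made up 2.89% to 4.44% of β-globin TPM, with means of 4.28% ± 0.146 in ctrl tumours, 3.75% ± 0.229 with miR-142-5p, 3.73% ± 0.756 with miR-183-5p and 3.43% ± 0.652 with miR-222-3p (SD, n = 3 each). The split of reads between the β-globin copies of the reference is uncertain in BALB/c mice, as described below, and so are these shares.

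Hba-a2, an α-globin gene, was at 89.3, 92.8 and 126.3 TPM in ctrl tumours and at 166.4, 90.6 and 78.6 TPM in miR-142-5p tumours. In miR-183-5p tumours it was at 132.2, 119.5 and 181.3 TPM and in miR-222-3p tumours at 73.2, 40.7 and 72.0 TPM. All of the latter lay below the other 9 tumours, of which miR-142-5p tumour 3 was the nearest. Hba-a1, its neighbour with the same role, was at 58.6, 41.4 and 51.1 TPM in ctrl, 84.4, 34.9 and 50.5 TPM in miR-142-5p, 74.4, 49.5 and 85.8 TPM in miR-183-5p and 35.7, 19.97 and 38.9 TPM in miR-222-3p tumours. Here miR-142-5p tumour 2 again lay within the miR-222-3p range, and the gap to the lowest ctrl tumour was narrow.

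Alas2 was the scarcest member, with only 20.6 to 58 estimated reads per library. It was at 1.53, 2.49 and 1.55 TPM in ctrl, 2.64, 2.32 and 2.77 TPM in miR-142-5p, 2.72, 1.47 and 3.03 TPM in miR-183-5p and 1.40, 0.948 and 0.608 TPM in miR-222-3p tumours. The miR-222-3p tumours were the 3 lowest, but the highest of them was close to miR-183-5p tumour 2. Its reads were split over 4 annotated transcripts, none above 41.5% of the total, whereas a single transcript held at least 99.9% of the reads of each globin gene.

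**Figure D1:**
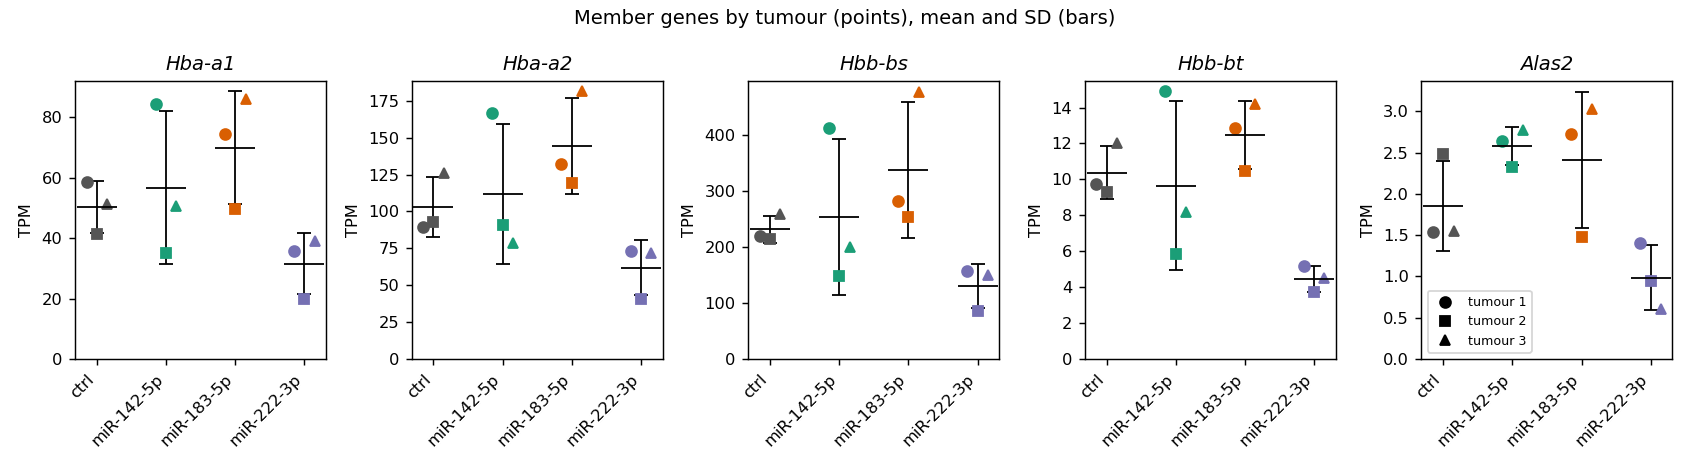
TPM of each member gene (y axis, starting at 0, a separate scale for each gene) in each tumour (points, shape by tumour number) of the 4 groups (x axis), with the group mean and SD as bars (n = 3). The miR-222-3p points lie below the ctrl points for all 5 genes, while miR-142-5p tumour 1 and miR-183-5p tumour 3 hold the highest globin values.

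Summed over the 4 genes, haemoglobin took 0.0117% ± 0.00130 (SD, n = 3) of reads in ctrl tumours, 0.0131% ± 0.00689 in tumours given miR-142-5p, 0.0165% ± 0.00455 in those given miR-183-5p and 0.00679% ± 0.00204 in those given miR-222-3p. The Wilson 95% intervals of single libraries, which cover counting error only, were far narrower than the spread between tumours. For example, miR-142-5p tumours 1 and 2 had 0.0210% (0.0204% to 0.0217%) and 0.00852% (0.00813% to 0.00893%). The order of group means was miR-222-3p, ctrl, miR-142-5p and miR-183-5p, but that of miR-142-5p fell to 0.00916% without tumour 1, below ctrl. In this measure every miR-183-5p tumour (0.0131% to 0.0217%) lay above every ctrl tumour (0.0103% to 0.0128%), while the miR-142-5p tumours overlapped both groups. In summed TPM the miR-183-5p and ctrl groups overlapped, with 433.5 in miR-183-5p tumour 2 against 448.8 in ctrl tumour 3. Over all single genes, 4.44% in normalised counts and 3.44% in TPM were higher in every miR-183-5p tumour than in every ctrl tumour. The shares were not tested. The highest values of all 12 were those of miR-183-5p tumour 3 (0.0217%) and miR-142-5p tumour 1. miR-183-5p tumour 3 also shared the low Gm28661 share of the miR-222-3p libraries.

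In the miR-222-3p tumours, the group used for the choice, the mean TPM relative to ctrl was 0.565 for Hbb-bs, 0.431 for Hbb-bt, 0.603 for Hba-a2, 0.626 for Hba-a1 and 0.531 for Alas2. The fitted log2 fold changes of DESeq2, a count model, were −0.83 (SE 0.36), −1.22 (SE 0.36), −0.73 (SE 0.32), −0.69 (SE 0.35) and −0.92 (SE 0.42) in the same order, and that of Alas2 was −0.61 (SE 0.41) with no length offset. In TPM, all 5 members were lower in every miR-222-3p tumour than in every ctrl tumour, which held for 1.92% of 15485 genes. In normalised counts this held for 4 of 5 members, Hba-a1 being the exception, and for 2.57% of all genes. Nothing can be read from these counts, because the members were selected on them.

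The other 2 mimics were not used for the choice, and their comparisons with ctrl, which share the ctrl tumours, could be tested. None of the 5 members was called by DESeq2's Wald test with Benjamini-Hochberg adjustment over all genes at 0.05. With 3 tumours per group the test called 1 of 15438 genes with miR-142-5p and 0 with miR-183-5p, so the lack of a call does not show that the members were unchanged. In miR-142-5p tumours 0 of 5 members passed, against 0.00648% of 15438 genes, and no member had an unadjusted p under 0.05, against 3.58% of genes. Log2 fold changes were 0.17 (SE 0.36, 95% interval −0.53 to 0.87) for Hbb-bs, −0.07 (SE 0.35) for Hbb-bt, 0.17 (SE 0.31) for Hba-a2, 0.19 (SE 0.35) for Hba-a1 and 0.51 (SE 0.41) for Alas2, which was 0.0356 (SE 0.40) with no length offset. Without miR-142-5p tumour 1, the values of Hbb-bs, Hba-a2 and Hba-a1 turned to −0.45, −0.30 and −0.29, none past the threshold.

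In miR-183-5p tumours the fold changes of all 5 members were above 0 and also 0 of 5 passed, against 0% of genes. The values were 0.57 (SE 0.36, 95% interval −0.13 to 1.27) for Hbb-bs, 0.29 (SE 0.35) for Hbb-bt, 0.52 (SE 0.31) for Hba-a2, 0.48 (SE 0.35) for Hba-a1 and 0.43 (SE 0.41) for Alas2. In normalised counts Hba-a2 and Hbb-bs were higher in every miR-183-5p tumour than in every ctrl tumour, against 4.44% of all genes in that direction. In TPM this held for 0 of 5 members, against 3.44% of genes. No member had an unadjusted p under 0.05, against 3.21% of genes. In either comparison with ctrl, edgeR's quasi-likelihood test called 0 of all 15485 genes, so its 0 calls say nothing particular about the members. Without miR-183-5p tumour 3, Hbb-bs was at 0.24 (SE 0.38) and Hba-a2 at 0.32 (SE 0.35). The 12 neutrophil markers summed to 1901 to 3079 TPM in miR-183-5p tumours against 1069 to 2066 TPM in ctrl tumours, and the 10 macrophage markers to 1266 to 1874 TPM against 1838 to 2306 TPM. S100a9 and S100a8 made up most of the neutrophil sum in miR-183-5p tumours (means of 1504 TPM and 748 TPM of 2431 TPM). Of 11 neutrophil markers tested, 4 had fold changes below 0, among them Camp at −1.08 (SE 0.47). All 12 endothelial markers had fold changes below 0, with a median of −0.22. The part of these cell types in the globin values was not tested.

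Between miR-183-5p and miR-142-5p tumours, 0 of 5 members passed, against 0.0518% of genes. The log2 fold changes lay between −0.08 (SE 0.40) for Alas2 and 0.40 (SE 0.36, 95% interval −0.30 to 1.10) for Hbb-bs. miR-142-5p tumour 1 moved these values. Without it Hbb-bs was higher in miR-183-5p tumours by 1.02 (SE 0.29) on the log2 scale (adjusted p = 0.0244, DESeq2), and the other 3 globin genes were at 0.77 to 0.90 without passing the threshold. That fit called 414 of 14533 genes, or 2.85%, against 8 with all tumours.

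**Figure D2:**
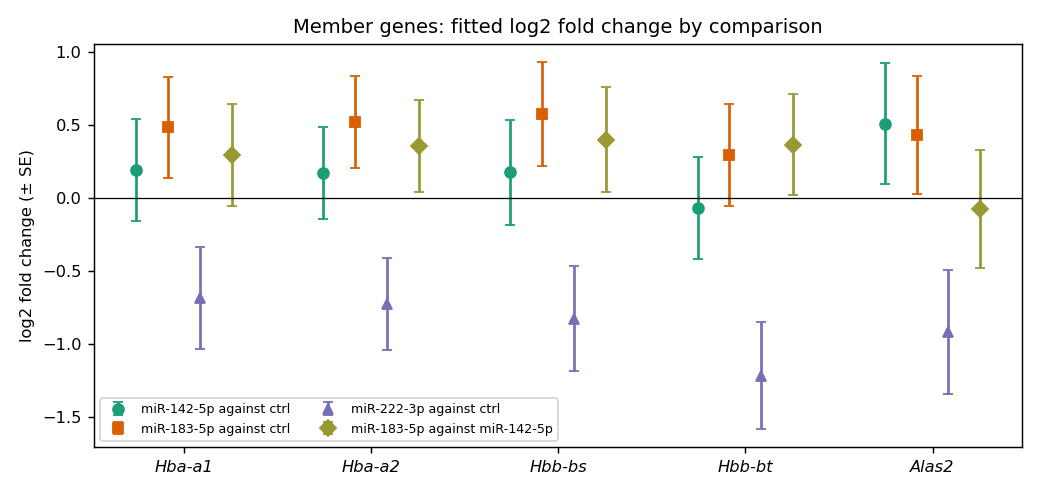
Fitted log2 fold change (y axis, points) with its standard error (bars) of each member gene (x axis) in the 4 comparisons named in the key. The miR-222-3p values, which chose the genes, lie between −0.69 and −1.22, and the others lie between −0.08 and 0.57.

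The α and β chains are made from separate clusters, and their mRNA levels followed each other closely. Across the 9 tumours outside the miR-222-3p group, log2 TPM of α globins (Hba-a1 + Hba-a2) and β globins (Hbb-bs + Hbb-bt) had a Pearson r of 0.963 (exact permutation p = 2.76e-06, two-sided, the smallest it can give) and a Spearman rho of 1 (exact permutation p = 5.51e-06). Adjusted over the 4 pairs of measures tested, these were 1.10e-05 and 2.20e-05, and r was 0.884 without miR-142-5p tumour 1 and miR-183-5p tumour 3, the 2 farthest from the median. The ratio of α to β TPM lay between 0.545 and 0.814 in all 12 tumours, with means of 0.633 ± 0.0294 in ctrl tumours, 0.675 ± 0.122 with miR-142-5p, 0.628 ± 0.0784 with miR-183-5p and 0.691 ± 0.0242 with miR-222-3p (SD, n = 3 each). The 9 tumours pool 3 groups, and genes of 1 library share its depth.

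Within the clusters, Hbb-bs and Hbb-bt had r = 0.930 (exact permutation p = 1.60e-04, adjusted 3.20e-04) and rho = 0.983 (exact p = 4.96e-05, adjusted 9.92e-05) over the same 9 tumours. For this pair r was 0.941 without the 2 tumours farthest from the median of Hbb-bs, which were miR-142-5p tumour 2 and miR-183-5p tumour 3. Hba-a1 and Hba-a2 had r = 0.790 (exact permutation p = 0.0141, adjusted 0.0188) and rho = 0.683 (exact p = 0.0503, adjusted 0.0671). Here r was 0.489 without miR-142-5p tumour 1 and miR-183-5p tumour 3, so this relation rested on those tumours. Neighbouring copies share sequence, and a read pair that lies wholly within shared stretches cannot be assigned to either. Of the windows as long as a single read in the main Hba-a2 transcript, 65.6% were also in Hba-a1. Of those of Hbb-bs, 58.6% were also in Hbb-bt. The reads were sequenced in pairs, so the share of pairs that cannot be assigned may be lower. Hba-a2 and Hbb-bs shared no 31-base window. The split within each cluster is uncertain, also because BALB/c mice are known to carry another β-globin haplotype than the reference strain. Summed within clusters before the fit, α globins changed by 0.51 (SE 0.31) and β globins by 0.56 (SE 0.35) in miR-183-5p tumours and by 0.17 (SE 0.31) and 0.16 (SE 0.35) in miR-142-5p tumours against ctrl, none past the threshold.

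In TPM, Alas2 did not follow the globins in the same way, but its TPM rested on few reads split over 4 transcripts. For example, miR-142-5p tumour 2 had 21.5 Alas2 reads and 2.32 TPM, while ctrl tumour 1 had 28.3 reads and 1.53 TPM. The relation was not tested in reads. Over the 9 tumours, log2 TPM of haemoglobin and Alas2 had r = 0.299 (exact permutation p = 0.430, adjusted 0.430) and rho = 0.317 (exact p = 0.410, adjusted 0.410), and r = −0.279 without miR-142-5p tumour 1 and miR-183-5p tumour 3. Over all 12 tumours r was 0.652, which includes the tumours used to choose both. Alas2 TPM came to 0.229% to 0.831% of haemoglobin TPM, and miR-142-5p tumours 2 and 3 were the highest at 0.831% and 0.823%.

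**Figure D3:**
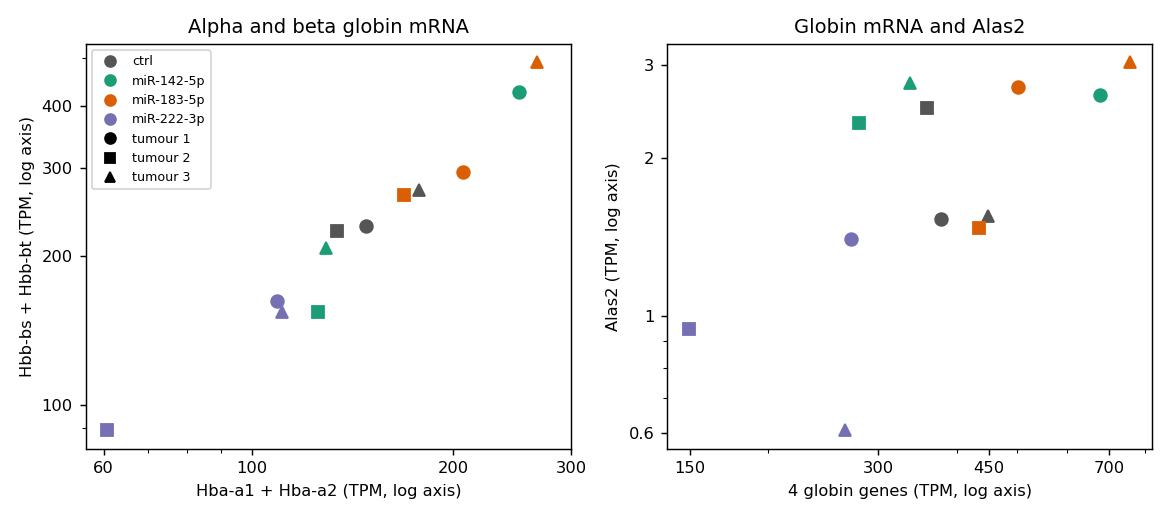
Left, summed TPM of the α globins (x axis) against the β globins (y axis), and right, summed TPM of the 4 globin genes (x axis) against Alas2 (y axis), in each of 12 tumours, all on log axes, with colour for the group and shape for the tumour number. The left points lie near a line (r = 0.963 over the 9 tumours outside the miR-222-3p group), while the right ones scatter (r = 0.299).

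Genes were ranked by the Pearson r, over 12 tumours, of log2(normalised count + 1) with the log2 of the summed normalised counts of the 4 globin genes. As a description, the 10 most alike outside the members had r of 0.835 to 0.927, against a median of 0.00223 over all 15485 genes. The first was Ndrg1, a stress-responsive gene, with r = 0.927 over 12 tumours and 0.968 over the 9 outside the miR-222-3p group. Its level was 809, 801 and 1049 TPM in ctrl, 1232, 668 and 799 TPM in miR-142-5p, 1005, 1069 and 1353 TPM in miR-183-5p and 839.5, 584 and 879 TPM in miR-222-3p tumours. The tumours highest and lowest in haemoglobin, miR-183-5p tumour 3 and miR-222-3p tumour 2, were also highest and lowest in Ndrg1, but its miR-222-3p values overlapped ctrl.

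The next were Myo1h, a myosin heavy chain gene (r = 0.898), Bnip3, a mitophagy receptor (r = 0.870), Hspa1b, an inducible chaperone of the Hsp70 family (r = 0.860), and Dnajb1, its co-chaperone (r = 0.857). They were followed by Ceacam10 (0.856), Uhrf1bp1l (0.856), Myo18a (0.852), Ddit3, a stress-induced transcription factor (0.838), and Il1r2, the decoy receptor of interleukin-1 (0.835). Over the 9 tumours these 9 genes had r of 0.762 to 0.921. By the same measure Alas2 stood at rank 170 of 15485 over 12 tumours (r = 0.662) and at rank 3524 over 9 (r = 0.366).

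**Figure D4:**
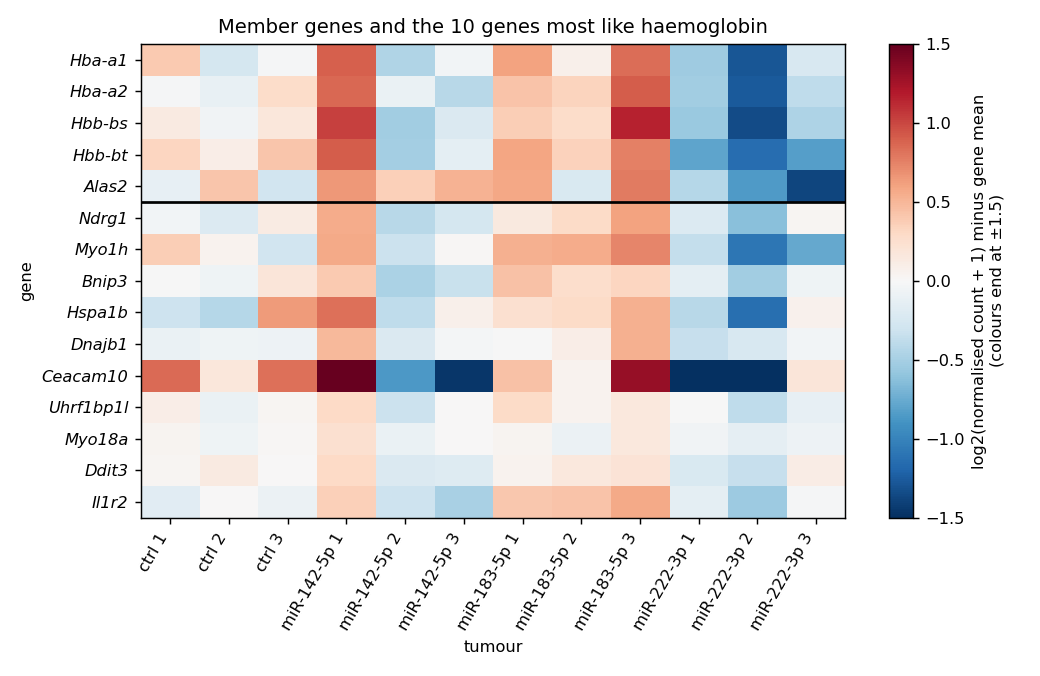
Heat map of log2(normalised count + 1) minus the gene's mean over 12 tumours (colour, ending at ±1.5), for the 5 members above the line and the 10 genes most alike below it (rows) in each tumour (columns). The columns of miR-142-5p tumour 1 and miR-183-5p tumour 3 are red and that of miR-222-3p tumour 2 is blue in nearly all rows.

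The other genes of the red cell varied in how far they followed the globins. Of 62 listed erythroid genes matched besides the members, 41 passed the count filter. By DESeq2, 0 of them were called in miR-142-5p or miR-183-5p tumours against ctrl or between these groups. The shares of all genes called were 0.00648%, 0% and 0.0518% in this order. Of the 41, an unadjusted p under 0.05 was found for 1 lower gene in the first comparison and 2 higher genes in the second. In the last it was found for 3 higher and 5 lower genes. The shares over all genes were 3.58%, 3.21% and 7.94%, and edgeR called 0 of all 15485 genes in each comparison. Against ctrl, all genes had a median log2 fold change of −0.00473 with miR-142-5p, −0.0109 with miR-183-5p and −0.00769 with miR-222-3p. The median of the 41 genes was 0.12, −0.02 and −0.02 in the same order. Their r with haemoglobin over 12 tumours ranged from −0.882 to 0.748, with a median of 0.0215. The lowest, also the lowest of all 15485 genes, was that of Uros, an enzyme of haem synthesis named here after its value was seen, which had r = −0.821 over the 9 tumours outside the miR-222-3p group and a level of 8.19 to 12.8 TPM.

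For haem synthesis, all 10 genes beside Alas2 passed the filter. The most abundant were Tmem14c (a mitochondrial porphyrin carrier), Alad (the second enzyme of the pathway) and Slc25a37 (mitoferrin, which imports iron), at means of 134 TPM, 77.1 TPM and 70.3 TPM over the 12 tumours. Their log2 fold changes in miR-222-3p tumours against ctrl, given as a description, were −0.03 (SE 0.17), −0.09 (SE 0.17) and −0.04 (SE 0.11). The listed genes summed to 481 to 530 TPM in miR-222-3p tumours and to 495 to 521 TPM in ctrl tumours, so the ranges overlapped. The enzymes among these genes serve all cells that make haem, unlike Alas2.

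Of 18 red cell membrane genes, 12 passed and 8 were under 1 TPM in every tumour. Slc2a1, a glucose transporter that red cells and many other cells carry, was the most abundant, with group means of 173 TPM in ctrl tumours, 135 TPM with miR-142-5p, 195 TPM with miR-183-5p and 131 TPM with miR-222-3p. It was the other listed erythroid gene most like haemoglobin (r = 0.748 over 12 tumours). Dmtn (dematin) and Epb41 (protein 4.1), both of the membrane skeleton, had means of 47.7 TPM and 37.7 TPM over the tumours. Of 14 matched maturation genes, 9 passed, led by Prdx2, a peroxiredoxin abundant in red cells, at a mean of 473 TPM, Bnip3l, which removes mitochondria from reticulocytes, at 219 TPM, and Mkrn1 at 47.2 TPM. Bnip3l had a log2 fold change of 0.39 (SE 0.12) in miR-183-5p and of −0.03 (SE 0.12) in miR-222-3p tumours against ctrl, the former not past the threshold. Of 14 transcription factors and receptors, 10 passed, led by Ldb1, Lmo2 and Tfrc, the transferrin receptor, at 126 TPM, 31.6 TPM and 30.3 TPM, none called.

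Of the 12 genes of haemoglobin clearance and iron recycling, 1 was called, between miR-183-5p and miR-142-5p tumours. In that comparison 0.0518% of 15438 genes were called. Hp encodes haptoglobin, which binds free haemoglobin and is also a granule protein of neutrophils. It was higher in miR-183-5p than in miR-142-5p tumours by 1.003 (SE 0.22) on the log2 scale (adjusted p = 0.0118, DESeq2), with means of 40.7 TPM and 20.5 TPM, and was not called against ctrl in either group. The call was lost without miR-142-5p tumour 3 (adjusted p = 0.0612, DESeq2), miR-183-5p tumour 2 (0.096) or miR-183-5p tumour 3 (0.102). It was also lost with edgeR (adjusted p = 0.545), which called 0 of all 15485 genes in this comparison. The fold change stayed between 0.92 and 1.05. The ferritin genes Fth1 and Ftl1 and the receptor gene Lrp1 were the most abundant of this list at 3841 TPM, 3532 TPM and 243 TPM, with fold changes within 0.21 of 0 on the log2 scale in all comparisons with ctrl. Among the globins outside red cells, Cygb (cytoglobin) had a mean of 8.15 TPM, Mb (myoglobin) 0.905 TPM, below the filter, and Ngb (neuroglobin) 0.714 TPM.

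Markers of other blood and vessel cells were set beside the low globin values of the miR-222-3p tumours. Platelet and megakaryocyte markers, led by Pf4 (platelet factor 4), Itga2b and Ppbp, summed to 66.8 to 116 TPM in miR-222-3p and to 59.5 to 104 TPM in ctrl tumours, with 8 of 12 genes under 1 TPM in every tumour. Endothelial markers, all 12 of which passed the filter, summed to 285 to 384 TPM and 249 to 366 TPM, led by Egfl7, Pecam1 and Plvap. Neutrophil markers, led by S100a9, S100a8 and Retnlg, summed to 899 to 2037 TPM and 1069 to 2066 TPM. These ranges overlapped those of ctrl, as did those that follow. Macrophage markers, led by C1qa, C1qb and C1qc, summed to 1653 to 2424 TPM and 1838 to 2306 TPM, and carcinoma markers, led by Krt18, Krt8 and Cldn4, to 1587 to 1833 TPM and 1673 to 2227 TPM. B and plasma cell markers, led by Igkc, Ighm and Jchain, summed to 49.9 to 83.1 TPM and 33.0 to 67.0 TPM.

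**Figure D5:**
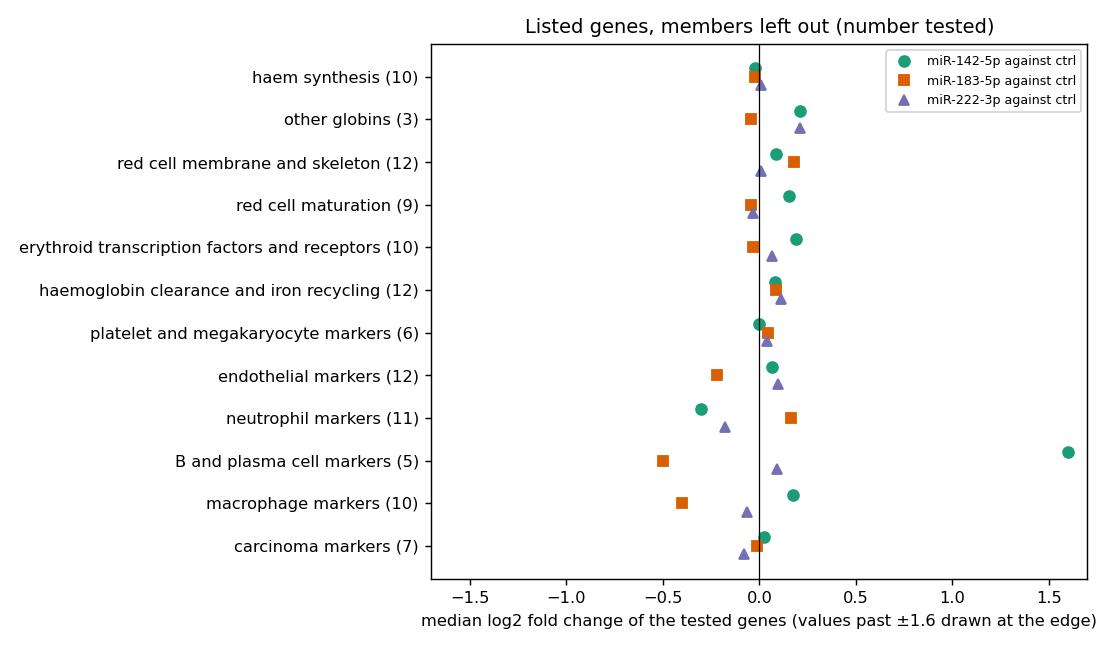
Median log2 fold change against ctrl (x axis) of the tested genes of each list, members left out (y axis, number tested in brackets), for the 3 other groups. The haem synthesis, red cell and iron lists lie within 0.19 of 0, and the B and plasma cell median in miR-142-5p tumours, 4.09, is drawn at the right edge.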

How the data were processed

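Gene expression was measured by poly(A) RNA sequencing of 12 tumours in 4 groups. The authors quantified transcripts with Salmon against GRCm38, and the deposited values are expected counts (NumReads), TPM and an effective length per transcript. Salmon divides reads that match several transcripts by its own estimate, which affects the neighbouring globin copies. Transcripts were matched by ID to GENCODE M21, which matched 116710 of 118783, and summed per gene, with expected counts rounded to whole numbers before the fit. The count filter asked for 10 or more estimated reads in 3 or more libraries, which 15485 genes passed, and 15438 had a p-value after the Cook distance filter. DESeq2 1.42.0 was fitted to all 12 libraries with group as the only term and a length offset, and edgeR 4.0.16 was an alternative. Fold changes are unshrunken. Correlations used exact permutation tests in scipy 1.17.1. The scripts were tested on simulated counts.

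The members and the lists were chosen with earlier results of these data known, and the text names the members, the 3 most abundant genes of each list, any called gene and the 10 genes most like haemoglobin. The genes of nucleated precursors were singled out after their values were seen. Depth was 20285968 to 27021401 reads, and a count of 0 allows a share of up to 1.11e-05% to 1.48e-05% (3 reads). Replicates of 1 group differed beyond counting noise (chi-square per degree of freedom 13.1 to 56.0 over 12 pairs). The labels number them as tumours within a group, and the authors state 3 tumours per group.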

Additional observations from a re-analysis of the deposited data

How the results depend on the processing

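The alternatives were another tool or normalisation, other count filters, no length offset, only the 2 groups compared, a replicate block, summed copies, no Cook distance filter, a threshold of 0.1, and each tumour left out. Leaving out miR-142-5p tumour 3 was planned for the comparisons that use its group, and was chosen after seeing the data for the miR-183-5p and miR-222-3p comparisons with ctrl. The number of members called stayed at 0 in all comparisons tested, except between miR-183-5p and miR-142-5p tumours, where it ranged from 0 to 1 over left-out tumours (1 without miR-142-5p tumour 1). The number of other erythroid genes called likewise ranged from 0 to 1 in miR-142-5p against ctrl (Slc2a1 without miR-142-5p tumour 1) and from 0 to 3 between miR-183-5p and miR-142-5p (Bcl11a, Bnip3l and Slc2a1 without that tumour), genes named after their values were seen. That setting called 0.492% and 2.85% of all genes in these comparisons. Of 223 alternative log2 fold changes of members in the tested comparisons, 214 kept their direction and side of the threshold. Over left-out tumours, miR-142-5p against ctrl lay between −0.29 and 0.44 for Hba-a1, −0.30 and 0.40 for Hba-a2, and −0.45 and 0.45 for Hbb-bs (each lowest without miR-142-5p tumour 1), and Hbb-bt lay between −0.60 and 0.19, being 0.00223 without ctrl tumour 3, 0.19 without miR-142-5p tumour 2 and 0.0852 without tumour 3. Alas2 between miR-183-5p and miR-142-5p was 0.35 with no length offset, which also took it from 0.51 to 0.0356 for miR-142-5p against ctrl (−0.92 became −0.61 in the miR-222-3p comparison), and lay between −0.28 and 0.16 over left-out tumours, highest without miR-183-5p tumour 2. With summed TPM in place of reads, the haemoglobin share was 0.0395% in ctrl tumours, 0.0431% with miR-142-5p, 0.0564% with miR-183-5p and 0.0229% with miR-222-3p, since TPM is scaled by transcript length. Same-numbered tumours did not deviate together (mean r −0.0445 over 18 pairs, −0.442 to 0.217), and with the replicate block 0 members were called in each comparison tested. Alas2 and Hbb-bt could not be fitted under the filter of 50 reads in every library. The depth limits Alas2, whose reads never passed 58 in a library.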
